A study of Homo sapiens with 18 samples.

Results

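MEL624 is an established human melanoma cell line. The values described here are the steady-state RNA levels of its unedited control, measured after enrichment of mRNA. The control is 1 line of wild type genotype that carries a random sgRNA, a guide not aimed at the gene studied, and 3 of its input RNA libraries, A, B and C, make up the set. These are 3 of the 9 input libraries and of the 18 libraries in the series. The other lines of the series lack PCIF1, the enzyme that methylates the cap-adjacent adenosine of mRNA, and they were not compared here. Cells were grown in DMEM with 10% FBS. Messenger RNA was enriched from total RNA in 2 rounds with magnetic beads and sequenced after directional library preparation. The series design speaks of biological replicates, but all 3 libraries come from 1 line, so the SD given with each mean covers the spread within that line only. Every one of 15258 genes had a value in each control library, in transcripts per 1e+06 transcripts (TPM), which divides reads by gene length and scales each library to the same total. Genes were ranked by their mean TPM over the 3 libraries, and a gene without a row in the table is given as not analysed here.

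Melanoma arises from melanocytes, pigment cells that descend from the neural crest. Differentiated melanoma cells keep the program of the transcription factor MITF and its targets in pigment synthesis, whereas undifferentiated cells are known for high AXL, EGFR and AP-1 factors, and for low MITF and SOX10. Many melanomas carry activated BRAF or NRAS, which drive the RAF, MEK and ERK kinases and, through them, cyclin D1, FOSL1 and the feedback phosphatases of the DUSP family. Gene-level reads of this kind give the amount of RNA, not mutations, isoforms or protein.

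The recovered reads on genes came to 11393206 in library A, 8382772 in B and 9098152 in C. Library A was the deepest, and 66 of its genes had 0 reads, against 100 in B and 79 in C. A limit of 3 reads corresponds to 0.263 reads per 1e+06 reads in A, 0.358 in B and 0.330 in C, for counting error only. Between libraries, the log2 TPM values of the 14424 genes at 1 TPM or more correlated across genes with a Pearson r between 0.990 and 0.991. The median coefficient of variation (CV, the SD as a percentage of the mean) of these genes was 6.14%. Each pair of libraries differed by more than counting error, with a chi-square per degree of freedom between 1.22 and 2.10.

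Abundance was concentrated in few genes. The 100 most abundant genes held 31.8% ± 0.112 of the summed TPM (SD, n = 3), and 506 genes held 50% of it. At the other end, 834 genes had a mean under 1 TPM and 4803 lay between 1 and 10 TPM. The largest class was 10 to 100 TPM, with 7855 genes that together held 27.8% of the TPM and 41.6% of the reads. Another 1680 genes lay between 100 and 1000 TPM, and 86 reached 1000 TPM or more. The median over all genes was 17.2 TPM and over the 12707 protein-coding genes 21.7 TPM, and 63.1% of all genes reached 10 TPM. These are the levels against which each gene group is read.

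**Figure D1:**
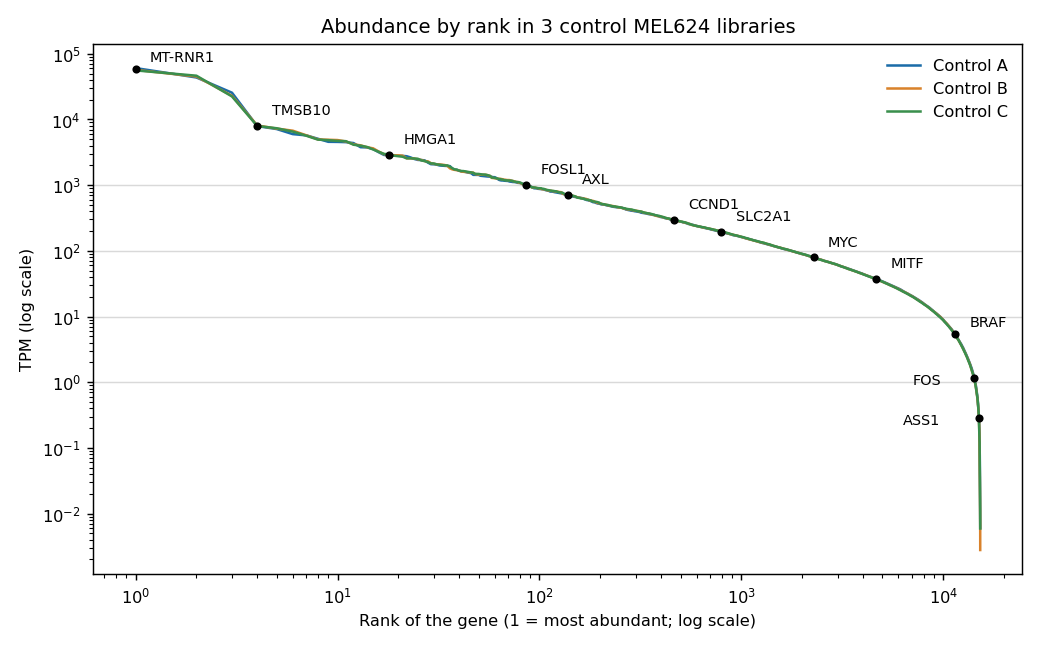
TPM of every gene (y axis, log scale) against its rank (x axis, log scale) in control libraries A, B and C, 1 curve per library, with 12 genes marked at their mean TPM. The 3 curves lie on each other, MT-RNR1 stands at 57759 TPM at rank 1 and MITF at 37.1 TPM at rank 4644.

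The start of an mRNA was examined because the most abundant messages of a growing cell include those of the translation machinery, which are known to begin with C and a run of pyrimidines, the 5′ terminal oligopyrimidine (TOP) motif. Start bases were read from RefSeq promoter records (GRCh38.p14), which matched 10161 of the 12694 nuclear protein-coding genes. Below are 30 bases from 20 before the annotated start, with the start base in capitals and, where it is C or T, the C and T that follow it without a break. The 6 most abundant ribosomal protein genes for which a window is shown come first, since they carry the motif most often. The 10 most abundant other nuclear protein-coding genes for which a window is shown follow. Among them EEF2 and HMGA1 also start with C and at least 4 further C or T, while RPL19 of the first set starts with G.
RPS6 (chr9:19380227-19380256, minus strand): gcgctaagcggaagttggccCTCTTTTCCg
RPL19 (chr17:39200263-39200292, plus strand): gggtttgggctctccccttcGcagataatg
RPL41 (chr12:56116613-56116642, plus strand): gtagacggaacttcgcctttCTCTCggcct
RPS21 (chr20:62387083-62387112, plus strand): tgccgggtgactagctgcttCCTTTCTCTC
RPS12 (chr6:132814549-132814578, plus strand): ggcatgcgtgcggatgaggcCTCTTTCCCT
RPL35 (chr9:124861948-124861977, minus strand): aggtcagccccgcctacttcCTCTTTCCCT
TMSB10 (chr2:84905636-84905665, plus strand): ggggcgggcgccgctcttttGtttcttgct
GAPDH (chr12:6535244-6535273, plus strand): tgcgcagcgggtgcatccctGtccggatgc
FTL (chr19:48965289-48965318, plus strand): cgccctagccacgtcccctcGcagttcggc
EEF2 (chr19:3985454-3985483, minus strand): tgagtgttgacgtcagcgttCTCTTCCgcc
ACTG1 (chr17:81512790-81512819, minus strand): cgggggaggccgcggtcggtCTCagtcgcc
ENO1 (chr1:8878677-8878706, minus strand): tcggcgcgggcggcgcggacAgtatctgtg
HMGA1 (chr6:34236853-34236882, plus strand): ccccctgcccctgggtcgctCTTTTTaagc
HSP90AB1 (chr6:44246174-44246203, plus strand): gtcccccccgcaggtactccActctcagtc
S100A6 (chr1:153535982-153536011, minus strand): gtcggactgcgacacagcccAtcccctcga
NME1-NME2 (chr17:51153539-51153568, plus strand): ctctccggcagcggatctgcGcagaagcgt

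Genes at 1000 TPM or more began with C in 43.8% of the 48 records, against 11.9% of all 10161 records. The share of C starts was 9.11% under 1 TPM, 9.94% from 1 to 10 TPM, 11.5% from 10 to 100 TPM and 17.3% from 100 to 1000 TPM. Starts with A, the base on which PCIF1 acts, ran the other way, with 55.1% under 1 TPM and 27.1% at 1000 TPM or more. A C followed by at least 4 further C or T was present in 31.3% of the genes at 1000 TPM or more and in 5.59% of all records. Among cytosolic ribosomal protein genes the share with that start was 67.2%, or 43 of 64 records, and among initiation and elongation factors 32.3%, or 10 of 31. With starts from GENCODE canonical transcripts, which cover more members, the shares were 75% of 80 ribosomal protein genes and 48.8% of 41 factors. Without the ribosomal protein genes, 15.6% of the 1292 records at 100 TPM or more began with C, against 11.9% of all. A single annotated base per gene stands here for starts that are often spread over several positions in cells.

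**Figure D2:**
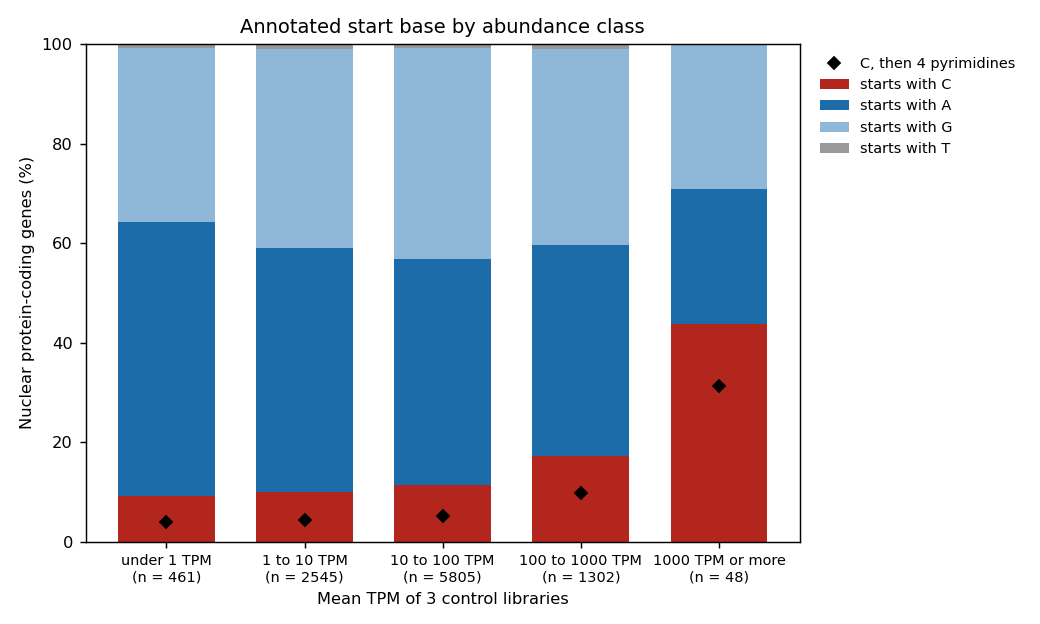
Share of nuclear protein-coding genes (y axis, percent) whose RefSeq start base is C, A, G or T, in 5 classes of mean TPM (x axis), with black diamonds for a C followed by 4 pyrimidines. The C share is 43.8% in the highest class, and A makes up 55.1% of the lowest class.

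In these libraries, the highest TPM values were those of mitochondrial RNA. Because mRNA was enriched first, the levels of ribosomal and small structured RNAs are those left after enrichment. They cannot be ranked against mRNA as amounts in the cell. MT-RNR1, the small ribosomal RNA of mitochondria, had 60567 TPM in A, 56859 in B and 55853 in C. MT-RNR2, the large one, had 25539, 22923 and 22410 TPM in A, B and C. Library A was highest for both. Together with the 13 protein messages and 8 tRNAs of the mitochondrial genome, these RNAs held 11.7% ± 0.448 of the TPM and 3.58% ± 0.134 of the reads (SD, n = 3). MT-CO1, a core subunit of cytochrome c oxidase, followed with 5982, 6749 and 6529 TPM, and was lowest in A. The 13 protein messages, all at 100 TPM or more, ranged from 1036 TPM for MT-ND1 to 6420 TPM for MT-CO1. MT-ND6, a complex I subunit and the only protein message of the opposite mitochondrial strand, had 1187 TPM in A, 1739 in B and 1915 in C, a spread far above that of its neighbours. Its CV was 23.6%, the largest among the 100 most abundant genes.

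The second place in the order went to ENSG00000283907, a long noncoding RNA gene on chromosome 19 (chr19:35557928-35581960, hg38) without a gene symbol. It had 43579 TPM in A, 45054 in B and 46354 in C, from 183091 reads in all. It overlaps the ATP4A gene on the opposite strand, and ATP4A was not analysed here. The small structured RNAs RMRP, of the RNase MRP particle, and RN7SL2, of the signal recognition particle, had 4731 ± 169 and 4643 ± 282 TPM (SD, n = 3). Levels of such short RNAs rest on few reads, in the case of RMRP 10275, because TPM divides by length. ENSG00000269900, with 4680 TPM and 10319 reads, has no match in GENCODE 44, and its reads follow those of RMRP within 1%. RN7SL1 and ENSG00000283029 had the same read count in every library, 3509 in all, so these 2 entries cannot be told apart.

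Among nuclear protein-coding genes the order was led by the cytoskeleton, glycolysis, iron storage and translation. TMSB10, which binds monomeric actin, had 7924, 8099 and 7961 TPM in A, B and C. GAPDH, the glycolytic dehydrogenase, had 7145, 7257 and 7344 TPM, and its range lay below that of TMSB10 in these libraries. FTL, the ferritin light chain, had 5726, 5742 and 5656 TPM. EEF2, the elongation factor that moves the ribosome along mRNA, had 3927 ± 154 TPM, and RPL8, a large-subunit protein, 3710 ± 141. ACTG1 and ACTB, the cytoplasmic actins, had 3217 ± 41.0 and 2553 ± 84.5 TPM, with ACTG1 higher in every library. HMGA1, an architectural chromatin protein that is high in embryos and tumours, had 2876, 2892 and 2951 TPM and led all listed transcription factors and chromatin regulators at rank 18. S100A6, a calcium-binding protein, had 2755, 2812 and 2709 TPM. HSP90AB1, a cytosolic chaperone, and ENO1, an enolase, had 2819 ± 22.7 and 2942 ± 55.3 TPM. ATP5F1B, the beta subunit of ATP synthase, had 2391 ± 20.1 TPM, PFN1, another actin-binding protein, 2114 ± 28.3 TPM and PKM, the pyruvate kinase, 2098 ± 90.5 TPM. Of the 30 most abundant genes, 8 were mitochondrially encoded and 4 coded for cytosolic ribosomal proteins, among them RPL8, RPS6 and RPL19. NME1-NME2, a read-through gene with 2281 TPM, shares its exons with NME2, which had 877 TPM, and the reads may be split or counted for both.

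The defining markers of a melanocyte were mostly without a value. Of 9 such markers, MITF and PAX3 were in the table. TYR, TYRP1 and DCT, the enzymes of melanin synthesis, PMEL and MLANA of the melanosome, the neural crest factor SOX10 and the calcium-binding S100B were not analysed here. MITF, the master regulator of the lineage (chr3, rank 4644), had 38.3, 37.1 and 36.0 TPM in A, B and C, above the median of all genes. These gene-level reads do not separate the melanocyte isoform of MITF from its more widely used isoforms. PAX3, which acts upstream of MITF in the neural crest, had 7.65, 7.93 and 7.11 TPM. The whole pigment and lineage list had 15 of 32 genes with a value, 7 of them at 10 TPM or more, and a median of 9.67 TPM, below the 17.2 TPM of all genes. Its highest members, CDK2 (106 TPM) and BLOC1S1 (104 TPM), act in cell division and in the biogenesis of lysosome-related organelles of many cell types. GPNMB, a melanosomal and lysosomal glycoprotein, had 37.2, 41.1 and 42.0 TPM. The melanosome transport genes RAB38 and MLPH had 20.8 and 21.4 TPM, and MC1R, the melanocortin receptor that controls pigment type, had 9.10 TPM. Among the defining pigment cell markers, only MITF and PAX3 thus had a level here. The label of the line as melanoma was not derived from these levels.

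Markers of the undifferentiated melanoma state were abundant. All 5 defining markers had a value at 10 TPM or more, and they summed to 1859 TPM in A, 1823 in B and 1824 in C. The 2 melanocyte markers with a value summed to 45.9, 45.0 and 43.1 TPM in the same libraries. The list of 41 genes had 39 with a value, 34 at 10 TPM or more, 17 at 100 TPM or more and a median of 72.2 TPM, 7.47 times the median of the pigment list. FOSL1, an AP-1 subunit, had 1034, 1026 and 999 TPM. CAV1, the coat protein of caveolae, had 865, 835 and 806 TPM. AXL, a receptor tyrosine kinase (chr19, rank 138), had 716, 696 and 716 TPM. KRT80, an epithelial keratin, and CCN1, a secreted YAP target, had 501 and 440 TPM. Levels were lower for EGFR (49.5, 47.5 and 47.1 TPM) and for SOX9 (37.5, 33.7 and 37.6 TPM). The inflammatory members were at the bottom, with 1.46 TPM for CXCL8 and 0.404 TPM for IL6, the second from 6 reads in all. NGFR, the nerve growth factor receptor that marks the neural crest-like melanoma state, had 2.62, 3.13 and 2.33 TPM, and TFAP2A, a neural crest factor, 8.12, 7.41 and 5.95 TPM. MCAM, a melanoma adhesion molecule, led the neural crest list with 182 ± 8.26 TPM, and that list had 20 of 32 genes with a value and a median of 7.36 TPM.

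The motif TGACTCA, to which AP-1 dimers of FOS and JUN proteins bind, was searched on both strands in the 300-base promoter records. It was present in 3 of 27 records of the undifferentiated list (11.1%) and in 2.91% of all records. Some other lists had similar shares on few records. The ERK output list had 13.3% (2 of 15), the lysosomal list 10.7% (3 of 28) and the pigment list 9.09% (1 of 11). Shares were lower in others. The glycolysis list had 3.57% (1 of 28), the initiation and elongation factors 3.23% (1 of 31) and the proliferation list 0 of 39. The 3 matches of the undifferentiated list are shown with the motif in capitals and 10 bases on each side, to show the letters that were counted.
AMIGO2 (chr12:47080166-47080192, minus strand): ttgggcatctTGACTCAaggaccagag
PLAUR (chr19:43670339-43670365, minus strand): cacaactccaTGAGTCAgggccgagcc
CXCL8 (chr4:73740422-73740448, plus strand): ggaagtgtgaTGACTCAggtttgccct
The 3 genes span 206 TPM for AMIGO2, an adhesion protein, 72.2 TPM for PLAUR, the urokinase receptor, and 1.46 TPM for CXCL8, so genes that share these letters differed widely in level.

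**Figure D3:**
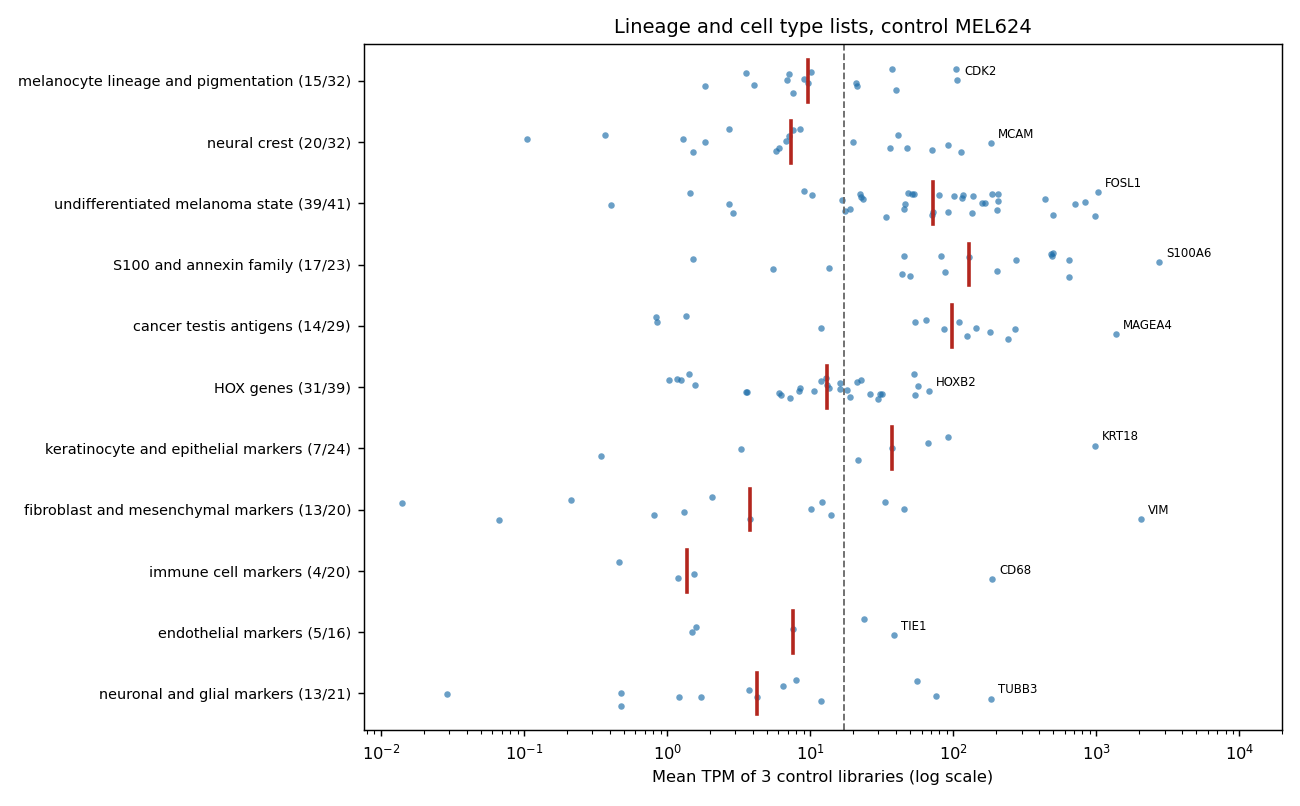
Mean TPM of 3 control libraries (x axis, log scale) for the genes of 11 lineage and cell type lists (rows, with the number having a value over the number listed). Points are genes, red bars list medians, the dashed line the median of all genes (17.2 TPM), and the leading gene is named. The undifferentiated list has a median of 72.2 TPM and the pigment list 9.67 TPM.

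Defining markers of other cell types were sparse. None of the 6 epithelial (KRT5, KRT14, EPCAM, CDH1, GRHL2, ESRP1), 5 immune or 4 endothelial defining markers was in the table, and they were not analysed here. Of the 6 fibroblast markers, COL1A1 had 0.888, 0.816 and 0.713 TPM and LUM rested on 1 read in all. Of the 6 neuronal and glial markers, SYP had 1.49, 0.738 and 1.42 TPM and RBFOX3 0.477, 0.390 and 0.554 TPM. The wider epithelial list had a value for 7 of 24 genes. Of these, 5 reached 10 TPM, and the median of the 7 was 37.4 TPM, above the 17.2 TPM of all genes. The other 17 were not analysed here, so this median leaves out most of the list. Medians of the wider fibroblast, immune, endothelial and neuronal lists were lower, at 3.81, 1.37, 7.63 and 4.24 TPM, although single members were high. KRT18, a simple-epithelium keratin, had 993, 966 and 977 TPM, KRT8, its usual partner, 89.1, 95.2 and 91.1 TPM, and KRT7 67.1 ± 3.21 TPM. KRT18 and KRT8 have many pseudogenes, so their levels are uncertain. In bulk RNA of this kind, few cells with much of an RNA and many cells with little cannot be told apart. VIM, the intermediate filament of mesenchymal cells and of melanocytes, had 2077, 2024 and 2014 TPM. CD68, a lysosomal protein used as a macrophage marker, had 186 ± 6.22 TPM, while the other 3 immune markers with a value, ITGAX, CSF1R and LCP1, were at 1.55 TPM or less. TIE1 and ROBO4, receptors known from endothelium, had 38.5 ± 1.77 and 23.8 ± 0.215 TPM. TUBB3, a beta tubulin of neurons and many tumours, had 184 ± 6.94 TPM.

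Cancer testis antigens, genes that are normally silent outside the germ line, had a value for 14 of 29 members, with 7 at 100 TPM or more. The median of these 14 was 97.7 TPM, and the other 15 were not analysed here. MAGEA4 had 1323, 1396 and 1406 TPM, the highest of the list. PAGE5 had 269 TPM and MAGEC2 242 TPM. MAGEA12 (180 TPM), MAGEA3 (143 TPM) and MAGEA6 (124 TPM) are near-identical copies on the X chromosome, so reads may be split between them and their order is uncertain. PRAME, a melanoma antigen, had 63.0, 65.0 and 65.8 TPM. S100 and annexin genes had a value for 17 of 23 members, with a median of 129 TPM. S100A11 and S100A16 followed S100A6 at 648 and 643 TPM, and the annexins ANXA5 and ANXA1 had 502 and 493 TPM.

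HOX genes, which record position along the body axis, had a value for 31 of 39 members and 19 reached 10 TPM. The HOXB cluster on chromosome 17 was the most abundant, with a summed 302 ± 6.37 TPM over its members from HOXB2 to HOXB13. HOXC on chromosome 12 followed with 163 ± 8.05 TPM, HOXA on chromosome 7 with 69.5 ± 4.23 TPM and HOXD on chromosome 2 with 40.4 ± 1.54 TPM (SD, n = 3). The ranges of the 4 sums over the libraries did not overlap. HOXB2 led with 72.0, 62.3 and 67.2 TPM, before HOXB7 (54.8, 57.9 and 58.3 TPM), HOXB9 (52.7, 54.9 and 55.0 TPM) and HOXC10 (55.5, 52.6 and 50.7 TPM). The ranges of the last 3 overlapped, with HOXB7 above HOXB9 within each library. Of HOXB, 8 of 9 members with a value reached 10 TPM, of HOXC 5 of 9, of HOXA 4 of 8 and of HOXD 2 of 5. The median of the HOX list was 13.2 TPM. Of the HOX genes that end in 13, which mark the tail end of the axis, HOXD13 was near that median with 12.8 TPM. HOXC13 and HOXB13 were lower, with 8.51 and 7.24 TPM.

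Receptor tyrosine kinases were dominated by a few members. Of 56 listed, 34 had a value, 18 were at 10 TPM or more and the median was 11.3 TPM. After AXL came EPHA2, an ephrin receptor with 550, 583 and 591 TPM, and MET, the receptor of hepatocyte growth factor, with 238, 235 and 229 TPM. DDR2, a collagen receptor, had 59.0 ± 0.487 TPM, FGFR1 25.8 TPM, ERBB2 21.3 TPM and IGF1R 15.8 TPM. ERBB3, a neuregulin receptor of melanocytes, had 3.56 TPM. Among ligands, 35 of 50 had a value, with a median of 11.3 TPM. Midkine (MDK) and VEGFB had 103 TPM each, the EGFR ligands HBEGF and AREG had 93.0 and 62.0 TPM, and GAS6, the ligand of AXL, had 2.98 TPM.

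The RAS to ERK core was expressed nearly throughout, with 25 of 26 genes having a value, 21 at 10 TPM or more and a median of 61.3 TPM. SHC1, an adaptor between receptors and RAS, led with 399, 430 and 417 TPM. HRAS had 89.5, 98.7 and 96.2 TPM, NRAS 87.5, 81.9 and 76.1 TPM, and RRAS 72.8, 76.9 and 72.8 TPM. HRAS lay above the other two in every library, while the ranges of NRAS and RRAS overlapped, with NRAS higher within each library. Among the RAF kinases, ARAF had 70.6, 63.8 and 68.7 TPM and BRAF 5.95, 5.11 and 5.18 TPM, and their ranges did not overlap.

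Downstream of ERK, 25 of 26 genes had a value, 20 reached 10 TPM and the median was 53.3 TPM. CCND1, or cyclin D1, had 296, 285 and 295 TPM. The phosphatases DUSP5 and DUSP4 had 167 ± 1.82 and 142 ± 1.80 TPM, and DUSP6, which acts on ERK itself, 63.5, 68.9 and 63.8 TPM. PHLDA1, a feedback gene, had 207 TPM, and the ETS factors ETV4, ETV5 and ETV1 had 119, 53.3 and 16.7 TPM. Of the immediate early genes, EGR1 and FOS were low, with 4.05, 5.61 and 3.45 TPM for EGR1 and 1.36, 0.931 and 1.21 TPM for FOS. Among AP-1 subunits, FOSL1 (1020 TPM) exceeded JUN (158 TPM), JUND (148 TPM), FOSL2 (93.2 TPM) and JUNB (46.4 TPM), with no overlap between neighbours. FOSB and FOS, both near 1 TPM, overlapped.

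Other pathways were read from the same kind of list. PI3K, AKT and mTOR genes had a median of 26.5 TPM, with 24 of 30 at 10 TPM or more. EIF4EBP1, the translation repressor that mTOR inactivates, had 456, 506 and 492 TPM. The kinase AKT1 had 55.9, 57.5 and 58.6 TPM and AKT2 47.0, 48.5 and 51.3 TPM, with AKT1 higher in each library. Hippo and YAP genes had a median of 53.8 TPM, with 9 of 29 at 100 TPM or more. The YAP targets CCN1, ANKRD1 and CCN2 had 440 ± 11.3, 133 ± 5.05 and 115 ± 3.13 TPM. The coactivators WWTR1 and YAP1 had 118 ± 3.85 and 79.5 ± 4.43 TPM. Of their DNA-binding partners, TEAD4 (133, 137 and 134 TPM) was above TEAD1 (52.8 TPM) and TEAD3 (31.5 TPM) in each library.

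The WNT, TGF-beta, NOTCH and Hedgehog lists had medians below that of all genes, and the secreted inhibitors DKK1 and FST were high. WNT genes had 36 of 63 members with a value and a median of 14.8 TPM, yet DKK1, which blocks WNT coreceptors, had 263, 252 and 257 TPM. TGF-beta, activin and BMP genes had a median of 14.5 TPM, and FST, or follistatin, which binds activins, had 218, 215 and 219 TPM. NOTCH genes had a median of 14.5 TPM, led by the gamma-secretase subunit APH1A with 172 TPM, and NOTCH2 was the highest receptor with 62.5 TPM. Hedgehog genes had 9 of 15 members with a value and a median of 3.44 TPM, none above 11.8 TPM (SMO). Of the 55 lists in all, 40 had a median above that of all genes.

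Cytokine and receptor genes had 43 of 59 members with a value and a median of 9.70 TPM. MIF, a cytokine-like tautomerase, had 1000, 954 and 929 TPM. The TWEAK receptor TNFRSF12A had 351 TPM and the decoy receptor IL13RA2 had 114, 116 and 110 TPM. Interferon and JAK-STAT genes had a median of 28.6 TPM. IFITM3, an antiviral membrane protein, led with 326 ± 6.62 TPM, and the strongly induced genes IFIT1, MX1 and OAS2 were at 4.38, 2.09 and 0.969 TPM. In antigen presentation, B2M had 213, 208 and 196 TPM, HLA-C 47.1, 53 and 53.1 TPM and HLA-B 8.30, 8.36 and 9.46 TPM. HLA genes are near-identical and vary between people, so reads may have been placed unevenly between them. CD74, the class II invariant chain, had 88.0 ± 3.40 TPM, while CIITA, the class II activator, had 1.12 TPM. Among immune ligands, the galectin LGALS1 had 1136, 1248 and 1177 TPM, the nectin-like PVR 143 TPM and CD274, or PD-L1, 31.4, 28.9 and 30.6 TPM.

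Glycolysis was among the most abundant metabolic programs. Of 42 listed genes, 31 had a value, 25 reached 10 TPM and 15 reached 100 TPM, with a median of 97.5 TPM and 2.05% ± 0.0338 of all TPM (SD, n = 3). PFKP led the phosphofructokinases with 342, 366 and 370 TPM, against 83.1 TPM for PFKM and 51.4 TPM for PFKL. HK1 had 149, 149 and 151 TPM and HK2 96.4, 98.6 and 97.6 TPM, so HK1 was higher throughout. LDHB, the lactate dehydrogenase subunit of heart muscle, had 1248, 1238 and 1191 TPM, and LDHA, the subunit of skeletal muscle, 574, 577 and 558 TPM. LDHB made up 68.1% ± 0.228 of lactate dehydrogenase TPM. Among monocarboxylate carriers, SLC16A1 had 140, 134 and 134 TPM, SLC16A7 13.1, 12.1 and 11.6 TPM and SLC16A3, the carrier typical of glycolytic export, 4.60, 5.20 and 6.28 TPM. SLC2A1 carried most glucose transporter RNA, with 191, 195 and 200 TPM, before SLC2A3 with 16 TPM. PKM counts do not separate its M1 and M2 isoforms.

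Mitochondrial respiration genes of the nucleus had 79 of 83 members with a value, 77 at 10 TPM or more and a median of 107 TPM. After ATP5F1B came COX8A (936 TPM) and NDUFB7 (932 TPM), subunits of complexes IV and I. Pyruvate entry and TCA cycle genes had 40 of 41 with a value and a median of 66.0 TPM, led by MDH2, the mitochondrial malate dehydrogenase, with 421 TPM, and ACLY, which makes cytosolic acetyl-CoA, with 383 TPM. The 4 pyruvate dehydrogenase kinases, which shut pyruvate entry, were all under 10 TPM. PDK2 led with 9.79, 9.37 and 8.0 TPM, above PDK1 (6.91, 6.72 and 5.57 TPM), and PDK1 and PDK3 overlapped. PPARGC1A, a coactivator of mitochondrial biogenesis that MITF is known to drive in some melanomas, had 0.972, 1.2 and 0.609 TPM.

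**Figure D4:**
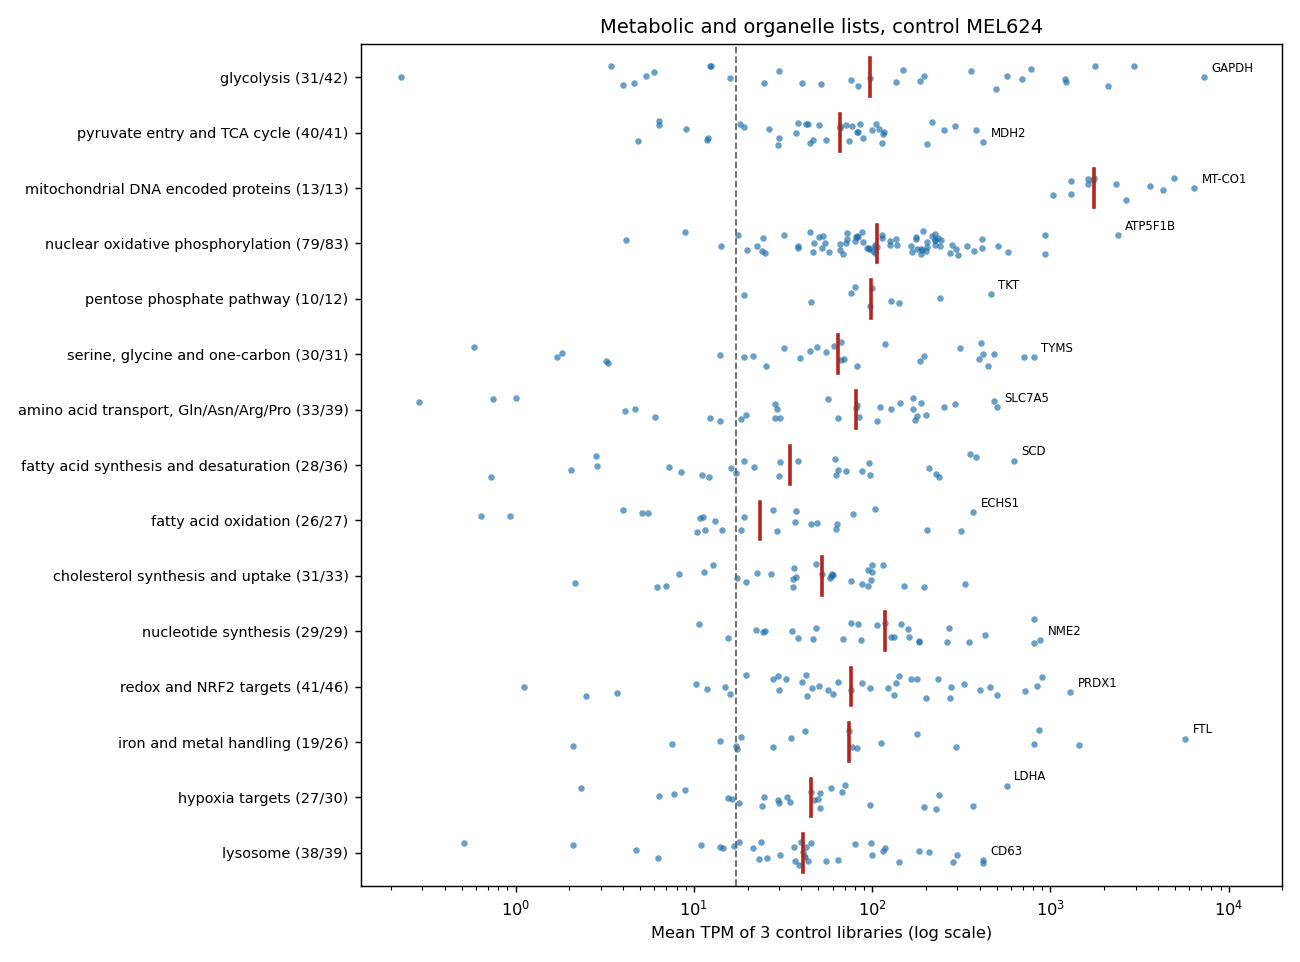
Mean TPM of 3 control libraries (x axis, log scale) for the genes of 15 metabolic and organelle lists (rows, with the number having a value over the number listed). Points are genes, red bars list medians, the dashed line the median of all genes (17.2 TPM), and the leading gene is named except for cholesterol. The mitochondrially encoded messages stand highest and fatty acid oxidation, at 23.3 TPM, lowest.

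Lists of biosynthetic genes had medians above the median of all genes. Nucleotide synthesis had all 29 members at 10 TPM or more and a median of 117 TPM, led by NME2 and by TYMS, or thymidylate synthase, with 797, 802 and 822 TPM. Serine, glycine and folate genes had a median of 64.2 TPM. PSAT1, a transaminase of serine synthesis, had 724, 694 and 706 TPM, above PHGDH, the entry enzyme of that pathway, with 171, 191 and 192 TPM. Amino acid transport and related genes had a median of 81.3 TPM, led by the transporters SLC7A5 (507, 473 and 531 TPM) and SLC1A5 (480 TPM). ASNS, or asparagine synthetase, had 170, 172 and 164 TPM. GLUL, or glutamine synthetase, had 0.965, 0.933 and 1.11 TPM. ASS1, which joins citrulline and aspartate in arginine synthesis, had 0.287 TPM from 6 reads in all, near the limit of 3 reads in a library, while ASL, the next enzyme, had 77.8, 83.1 and 83.0 TPM.

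Lipid genes were described as lists of synthesis, cholesterol and oxidation genes. Fatty acid synthesis and desaturation had a median of 34.4 TPM, with 22 of the 28 genes with a value at 10 TPM or more. SCD, which makes monounsaturated fatty acids, had 646, 609 and 614 TPM, and its paralog SCD5 16.9, 15.7 and 16 TPM. FASN, the fatty acid synthase, had 361, 342 and 365 TPM. Cholesterol genes had a median of 52.3 TPM. Fatty acid oxidation had a median of 23.3 TPM, with 21 of 26 at 10 TPM or more. ECHS1 (370 TPM) and ACADVL (315 TPM) were highest in it, and CPT1A, the carnitine entry enzyme, had 4.0 TPM. Redox genes had a median of 76.5 TPM, led by the peroxiredoxin PRDX1 (1291 TPM) and GSTP1 (891 TPM), and NQO1, an NRF2 target, had 337, 324 and 321 TPM. In iron handling, FTL exceeded FTH1, the ferritin heavy chain (896, 845 and 851 TPM), 6.61 times, and FTH1 reads may be lost to its many pseudogenes. MT2A, a metal-binding metallothionein, had 1435, 1447 and 1465 TPM.

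Lysosomal genes had 38 of 39 members with a value and a median of 41.1 TPM, and they are shared targets of MITF, TFE3 and TFEB. Of these 3 related factors, TFE3 had 99.0, 95.7 and 99.0 TPM, MITF 37.1 TPM and TFEB 0.617, 0.238 and 0.696 TPM. The order held in each library. The motif TCATGTG, the core of the M-box that MITF binds, was searched on both strands of the promoter records. It was found in 6 of 28 lysosomal records (21.4%), against 1.66% of all records. It was also found in 2 of 11 records of the pigment list (18.2%) and in 2 of 15 of the ERK output list (13.3%). The lysosomal list was chosen with earlier results known, and no test was made of this difference. The matches are shown with the motif in capitals and 10 bases on each side, because the 3 factors differ so widely in level.
CD63 (chr12:55729095-55729121, minus strand): gttaccgcgtCACATGAgggaggccgg
PPT1 (chr1:40097240-40097266, minus strand): gcgcccgcggTCATGTGacacagcgaa
CTSA (chr20:45891313-45891339, plus strand): gtgactcgtaCACATGActtccagtcc
GPNMB (chr7:23246642-23246668, plus strand): gagtcataagCACATGAgttgtaagag
TPP1 (chr11:6619427-6619453, minus strand): aatatagagcTCATGTGatccgtcaca
SCARB2 (chr4:76213921-76213947, minus strand): cgccgcagggCACATGActgcggcctc
CD63, a tetraspanin of late endosomes and melanosomes, had 420 TPM and led the list, PPT1 had 118 TPM, CTSA 40.9 TPM, TPP1 18 TPM and SCARB2 14.5 TPM. TPP1 held a further match in the opposite orientation. The match is a description of letters within 250 bases before and 50 bases from the start.

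Proliferation genes were high, with 51 of 52 members having a value, 50 at 10 TPM or more, 28 at 100 TPM or more and a median of 118 TPM. CDC20, an activator of the anaphase-promoting complex, had 763, 783 and 817 TPM, and MKI67, the proliferation marker, 140, 129 and 137 TPM. CDK4 had 376, 401 and 398 TPM and CDK6 56.0, 49.9 and 48.9 TPM, with CDK4 higher in each library. The letters CCAAT, bound by the factor NF-Y, were present on either strand in 23 of 39 promoter records of the proliferation list (59.0%), against 37.3% of all records. CDKN2A, the locus of the CDK4 inhibitor p16 and of p14ARF on chromosome 9, had 3.36, 2.72 and 2.68 TPM from 105 reads. Its neighbour MTAP, an enzyme of methionine salvage, had 72.4, 66.3 and 71.1 TPM. CDKN1A, the CDK inhibitor p21, had 140, 142 and 139 TPM. TERT, the telomerase reverse transcriptase, had 3.55, 3.18 and 3.51 TPM. Among survival proteins, MCL1 (305, 306 and 305 TPM) was above BCL2L1 (163, 171 and 164 TPM), and BCL2 had 5.95, 5.11 and 5.13 TPM.

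Adhesion and matrix genes had mixed levels. CDH2, or N-cadherin, the cadherin of mesenchymal cells, had 99.2, 102 and 99.4 TPM. Integrins had 19 of 25 members with a value and a median of 6.95 TPM, led by ITGA3 (359, 358 and 368 TPM) and ITGB1 (268, 260 and 255 TPM), which together form a laminin receptor. ITGB3, known from invasive melanoma, had 0.887 TPM. Matrix genes had a median of 39.2 TPM, with SPARC, a collagen-binding glycoprotein, at 374, 395 and 383 TPM and the laminin chain LAMB1 at 322, 340 and 319 TPM. FN1, or fibronectin, had 3.81 TPM. TIMP1, an inhibitor of matrix proteases, had 177 ± 8.71 TPM, MMP14 61.1 TPM and MMP2 50.4 TPM.

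The enzymes that modify and read mRNA caps and N6-methyladenosine all had a value, 26 of 27 at 10 TPM or more, with a median of 32.9 TPM. PCIF1, the gene removed in the other lines, had 55.2, 62.0 and 55.6 TPM. RNMT, the cap methyltransferase, led with 139, 140 and 134 TPM. METTL3 had 44.9, 41.2 and 42.8 TPM and its partner METTL14 13.7, 10.0 and 12.3 TPM, and the demethylase FTO had 7.30, 6.77 and 6.64 TPM.

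In 30 families of related genes, 70 of 75 neighbouring pairs in the order of levels had ranges that did not overlap over the 3 libraries. The 5 pairs that overlapped included NRAS and RRAS, PDK1 and PDK3, FOSB and FOS, and SLC2A6 and SLC2A13. Some families were nearly 1 gene by level. TMSB10 exceeded its paralog TMSB4X (130, 136 and 142 TPM) 58.9 times, although TMSB4X reads may be lost to pseudogenes. SOX12 (47.4 TPM) led the SOX family before SOX9, and SOX10 was not analysed here.

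**Figure D5:**
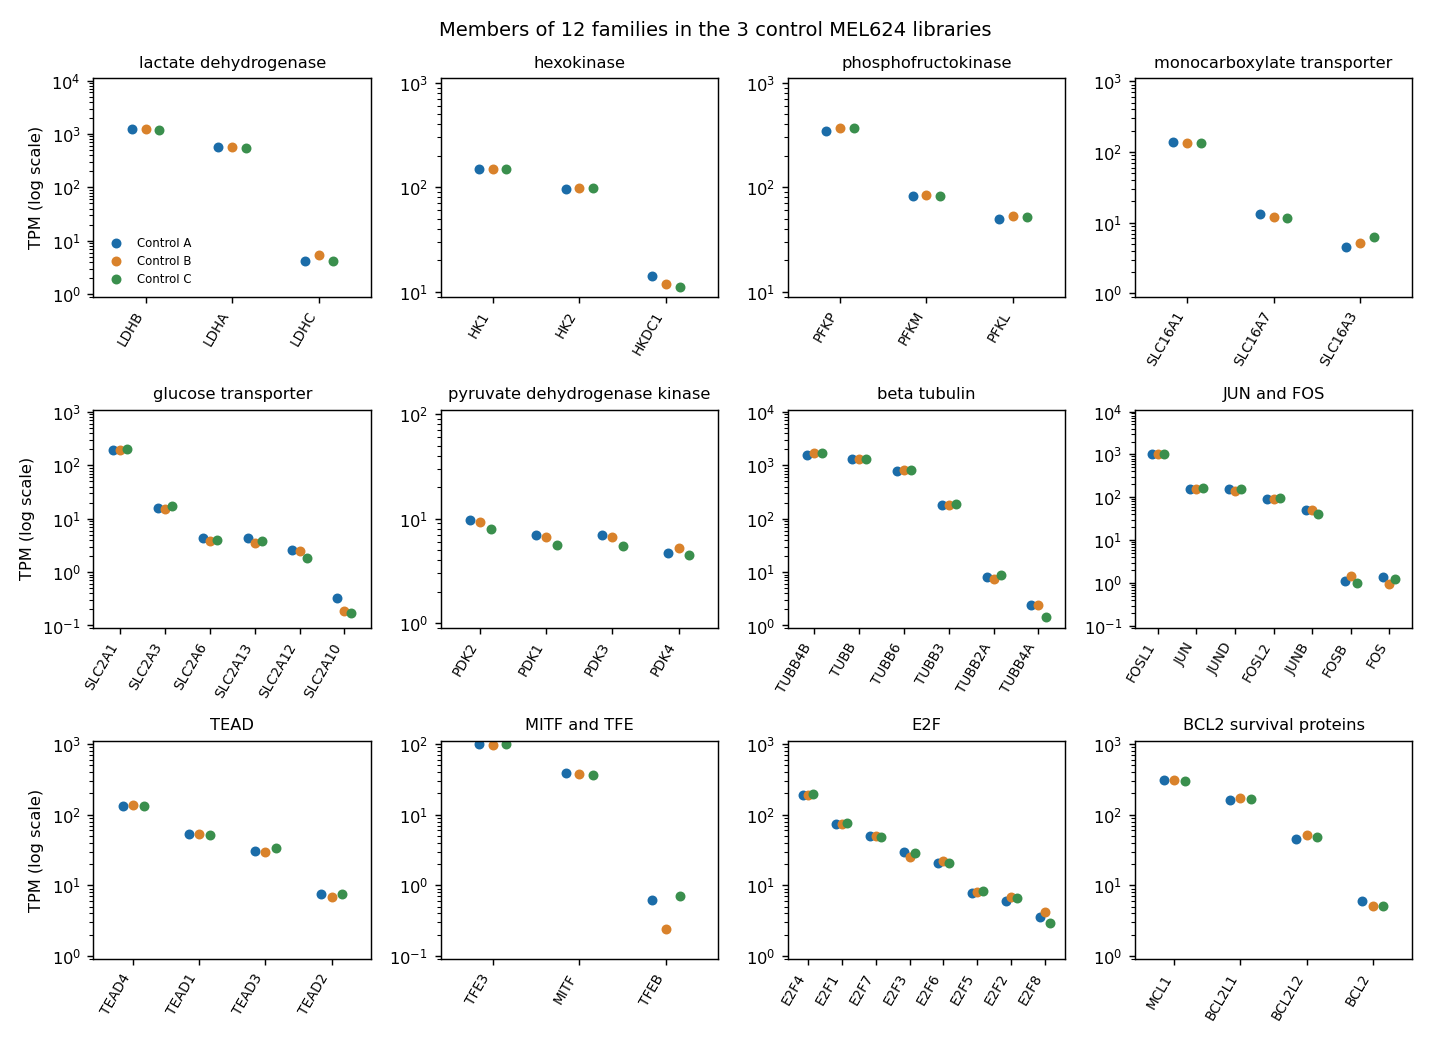
TPM (y axis, log scale) of the members of 12 families in control libraries A, B and C, shown as 3 coloured points per gene in order of their means. FOSL1 stands at 1020 TPM above the other JUN and FOS genes, SLC2A1 at 195 TPM above the other glucose transporters, and PDK1 and PDK3 overlap.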

How the data were processed

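The deposited table holds log2 TPM values that the authors computed for 15258 genes, named by Ensembl identifiers, in 9 input libraries, and the column names identify the libraries. The submitters' processing notes name the genome build hg38, edgeR 3.12.1 under R 3.3.3, the read counter featureCounts, the aligner HISAT2 2.0.4, deepTools 3.0.2 and SAMtools 1.7. What each did here, which annotation and strand setting were used, and how genes were filtered is not stated in those notes. Antisense and overlapping genes may therefore share reads. Only the 3 control columns were used. TPM was taken as 2 to the deposited log2 value and averaged over the libraries, with the SD between them. The whole reads behind each value were solved from its low-level steps in 100% of genes (largest distance from a whole number 6.88e-09), 28874130 in all, a procedure tested on simulated data. The authors' values include a small prior count, under 1 read in each library. The labels mention no molecular identifiers, so a read need not be a separate molecule and limits cover counting error only.

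Symbols, positions and biotypes came from GENCODE 44 (hg38), which matched 15138 identifiers, and 120 had no match. Start bases came from RefSeq promoter records. Named genes were the 30 highest by mean TPM, up to 6 members and the defining markers of each of 55 gene lists, the members of 30 families, the 10 genes at 10 TPM or more with the largest CV, and the 10 most abundant of each noncoding class. For families and lists, the text gives those that carry a description, and some named members are not reported here. The genes, lists and families were chosen with earlier results of these data known. No group was compared with another, so no test was made, and each list is set beside the median and counts of all genes. List medians cover only the members with a value. Alternatives were leaving out each library, a geometric mean, TPM without the prior count, reads per 1e+06 reads without length, rescaling without mitochondrial and ribosomal protein genes, filters on low values, and a different source of start bases. Python 3.11.15, pandas 2.3.3 and NumPy 2.4.6 were used.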

Additional observations from a re-analysis of the deposited data

How the results depend on the processing

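No paired analysis was possible because 1 group was described and no groups were compared. Leaving out 1 library left 9601 to 9619 genes at 10 TPM or more (9621 with all 3), 31.7% to 31.8% of the TPM in the 100 most abundant genes, and all 30 most abundant genes among the 30. The ratio of the undifferentiated to the pigment list median moved between 7.58 and 7.76, against 7.47, and the list medians between 0.930 and 1.07 of their value. The median CV was 4.75% to 5.46% with 2 libraries, against 6.14% with 3, since a pair has fewer values. In reads per 1e+06 reads without length, 52 of 55 list medians moved beyond the spread between libraries, to between 0.291 and 2.99 times their TPM value, the 100 most abundant genes held 17.8%, 15 of the 30 most abundant genes stayed among the 30, the ratio of the 2 lists was 8.35, and 24 of 30 families kept their leading member. The new leaders of the other 6 included PDK1, AKT2, NRAS, TEAD1 and TUBB. Without mitochondrially encoded and ribosomal protein genes the 100 most abundant genes held 23.8%, because the largest entries were left out, and all 53 list medians that could be computed rose, to between 1.16 and 1.21 times their value, because fewer genes share the total. With genes at 1 TPM or more only, the ratio was 7.85, because low members were left out. The geometric mean and TPM without the prior count moved none of the list medians, the 30 highest gene levels or the summary values beyond the spread between libraries. The share of C starts at 1000 TPM or more was 44.3% in GENCODE canonical transcripts, against 43.8% in RefSeq. The share with C and 4 further C or T was 36.1% against 31.3% in that class, 75% against 67.2% in ribosomal protein genes, 48.8% against 32.3% in initiation and elongation factors, and 5.56% against 5.59% in all. Depth limits genes of few reads, since at 1 to 10 TPM the median was 41 reads per library and the median CV 12.9%.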

Other observations

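Noncoding and unannotated entries held a visible part of the TPM. The 1503 long noncoding RNA genes held 6.77% ± 0.144 of the TPM (SD, n = 3) with a median of 4.46 TPM, and ENSG00000283907 made up most of it. MALAT1, a nuclear RNA of speckles, had 721, 727 and 701 TPM, and NEAT1, the scaffold of paraspeckles, 89.1, 101 and 100 TPM. BCYRN1, a small cytoplasmic RNA best known from neurons, had 728, 811 and 846 TPM. The 708 pseudogenes held 0.910% of the TPM with a median of 5.47 TPM. TRBC2, annotated as a T cell receptor constant segment on chromosome 7, had 158, 147 and 161 TPM from 974 reads, while the T cell marker CD3E was not analysed here.

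The most variable genes at 10 TPM or more were mostly short or mitochondrial copies. MTCO2P12, a nuclear copy of mitochondrial sequence on chromosome 1, had 25.0 TPM in A, 293 in B and 170 in C, a CV of 82.5%, and MTCO1P12 had 19.4, 90.2 and 59.7 TPM. Library A was lowest for both. The other 8 were ENSG00000260375, ENSG00000271347, SNORA64, MIR25, SNORD88B, SNORA61, RN7SL657P and SNORA71C, each with 22 reads or fewer in any library, where counting error is large.

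Median levels of nuclear protein-coding genes differed between chromosomes. Chromosome 20 had the highest median, 32.1 TPM over 333 genes, then chromosome 17 with 30.5 TPM over 765 genes. Chromosome 4 had the lowest, 14.5 TPM over 458 genes, below chromosome 21 with 14.9 TPM over 109 genes. Both higher medians exceeded both lower ones in each library. Copy number was not measured here.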
